A study of Mus musculus with 6 samples.

Results

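Fibronectin, osteopontin and the matricellular proteins are secreted glycoproteins that link cells to the collagen and elastic fibres around them. The 10 genes described here are Fn1, Spp1, Sparc, Tnc, Postn, Thbs1, Thbs2, Fbn1, Pcolce and Serpinh1, out of 27482 gene symbols with counts. They were picked by symbol with the difference between the study's groups already known, so their levels and fold changes in that comparison are given as a description without p-values. RNA-seq was run on 6 libraries labelled as heart, from mice that the series title calls male: 3 overexpressed FNDC4 from an AAV9 vector (AAV9-hFNDC4) and 3 carried a control AAV9 vector (AAV9-CTRL). AAV9 is an adeno-associated virus that reaches the heart, and FNDC4 is a secreted protein with a fibronectin type III domain. All groups had been through ischemia/reperfusion (I/R), in which blood flow is stopped and then restored, and were sampled after 24 h. The sources used here name no strain, no age and no promoter for the transgene. Fndc4 itself was not analysed here, and the labels of the vectors rest on no check by its level.

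Fibronectin is assembled by cells into fibrils through integrins and is laid down early in a healing infarct, ahead of collagen. Osteopontin, tenascin C, periostin, SPARC and the thrombospondins are called matricellular because they change how cells attach, move and signal more than they bear load, and in the heart they are known as genes switched on after injury. Fibrillin 1 forms the microfibrils that carry elastin and latent TGF-beta, while PCOLCE and SERPINH1 serve the making of collagen, outside and inside the cell.

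Fn1 and Fbn1 were higher in the libraries labelled AAV9-hFNDC4, Sparc, Pcolce and Serpinh1 were moderately lower, Thbs1 and Tnc had no reads there at all, and Spp1, Thbs2 and the barely detected Postn overlapped between the groups. In the edgeR quasi-likelihood fit over 14663 genes, 2 of the 8 members tested passed a Benjamini-Hochberg adjusted threshold of 0.05 as higher and 4 as lower, where 22.1% and 25% of all genes tested did so. Nothing is read from these counts, since the members were chosen with this contrast known. The median log2 fold change of the 8 was -0.22, against 0.0073 over all genes tested, and was the same with Thbs1 placed at its bound. Tnc and Postn did not reach the minimum count for testing, and Thbs1 reached it through the AAV9-CTRL libraries alone.

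RefSeq promoter entries (GRCm38.p6) were found for 8 of the 10 members, with none for Fn1 and Thbs1. The 250 bases before the start are shown for the 4 members that hold the TATA box letters TATAAA there on either strand and for Serpinh1, whose RNA was abundant in every library. The Tnc window lies at chr4:64047016-64047265 (minus strand), that of Postn at chr3:54360857-54361106 (plus), Spp1 at chr5:104434861-104435110 (plus), Thbs2 at chr17:14694263-14694512 (minus) and Serpinh1 at chr7:99353240-99353489 (minus). Capitals mark every match, on either strand, to a searched motif. The motifs were the TATA box, the CCAAT box with those letters, the GC box with the letters GGGCGG, the AP-1 element with the letters TGANTCA, the cyclic AMP element with the letters TGACGTCA, the TEAD element with the letters GGAATG, the hypoxia element with the letters ACGTG, the heat shock element and the CArG box.
Tnc: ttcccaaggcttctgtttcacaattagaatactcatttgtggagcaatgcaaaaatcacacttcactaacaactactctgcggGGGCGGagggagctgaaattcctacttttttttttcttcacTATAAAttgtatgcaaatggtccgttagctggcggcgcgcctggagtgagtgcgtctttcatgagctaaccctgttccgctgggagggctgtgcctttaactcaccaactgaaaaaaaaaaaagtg
Postn: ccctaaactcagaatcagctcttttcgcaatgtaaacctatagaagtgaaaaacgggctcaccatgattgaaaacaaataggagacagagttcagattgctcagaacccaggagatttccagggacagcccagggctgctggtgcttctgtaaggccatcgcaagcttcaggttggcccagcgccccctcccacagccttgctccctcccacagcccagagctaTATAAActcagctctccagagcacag
Spp1: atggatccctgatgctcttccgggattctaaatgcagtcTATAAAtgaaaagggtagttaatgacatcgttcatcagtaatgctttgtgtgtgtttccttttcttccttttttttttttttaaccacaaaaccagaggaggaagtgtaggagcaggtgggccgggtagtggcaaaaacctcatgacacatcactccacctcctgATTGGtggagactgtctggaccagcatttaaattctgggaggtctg
Thbs2: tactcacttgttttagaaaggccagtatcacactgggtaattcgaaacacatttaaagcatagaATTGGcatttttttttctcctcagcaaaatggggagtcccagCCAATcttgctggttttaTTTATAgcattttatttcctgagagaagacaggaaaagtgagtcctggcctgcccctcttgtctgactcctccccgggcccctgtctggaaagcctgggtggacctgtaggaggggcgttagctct
Serpinh1: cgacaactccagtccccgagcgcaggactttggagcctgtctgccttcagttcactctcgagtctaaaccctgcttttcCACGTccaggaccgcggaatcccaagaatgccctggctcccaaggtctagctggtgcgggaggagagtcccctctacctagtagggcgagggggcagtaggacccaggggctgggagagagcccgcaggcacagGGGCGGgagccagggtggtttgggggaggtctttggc
Counted from the start that these windows precede, with -1 the last base before it, the TATA letters stood at -26 to -21 in Postn, at -126 to -121 in Tnc and Thbs2, and at -211 to -206 in Spp1. In Thbs2 they lie on the opposite strand and print as TTTATA. Tnc, Postn and Spp1 each have a further RefSeq start, from which the Tnc letters stand at -205 to -200 and whose windows in Postn and Spp1 do not hold them. These letters occur in 12.4% of 32851 promoter windows of the same length. The CCAAT letters were in the windows of Spp1 and Thbs2 (33.8% of all windows), the GC box in those of Tnc, Fbn1, Pcolce and Serpinh1 (32.7%), and the hypoxia letters in that of Serpinh1 (16.6%). The windows of Fbn1, Sparc and Pcolce are not wholly upstream of the annotated gene, since 250, 238 and 83 of their 250 bases are exon bases of the gene itself. The AP-1, cyclic AMP, CArG, TEAD and heat shock letters, held by 6.75%, 1.55%, 1.47%, 12.6% and 0.466% of windows, were in none of the 8 members' windows. A match is a description of letters and not of a bound site.

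The 6 libraries held 32975817 to 36074046 counts. Fewer genes had a count under AAV9-hFNDC4, 18717 to 18863 per library, than under AAV9-CTRL, 20431 to 20870. Mitochondrial genes took 2.15% to 2.31% of counts against 0.955% to 2.07%, and the part of this in the results below was not tested. Heart muscle markers went against the tissue label. Of 14 cardiomyocyte markers, 2 reached 1 CPM (counts for each 1000000 counts of the TMM-scaled library) in at least 3 libraries, and their summed level was 40.7 to 41.9 CPM under AAV9-hFNDC4 and 53.4 to 55.8 CPM under AAV9-CTRL. Tnnt2 made nearly all of it (38.1 and 51.7 CPM), Myh7 averaged 2.06 and 1.09 CPM and Myh6 0.245 and 0.310 CPM, and Nkx2-5, Pln and Myl7 were at 0. The groups are therefore named by their labels, and no value is assigned to heart muscle. Fibroblast markers summed to 3628 to 4096 CPM against 2540 to 2955 CPM, with 9 of 13 at 1 CPM. Of the 9 tested, 5 were called higher (Col1a2, Col3a1, Pdgfra, Ddr2 and Pi16), Dpt (4.59 against 8.25 CPM) and Mfap5 were called lower, and Col1a1 and Gsn were not called. Dcn, Lum and Tcf21 stood at or below 0.0641 CPM. Mural cell markers (2 of 7 at 1 CPM, 531 to 594 against 296 to 358 CPM) were higher through Pdgfrb and Cspg4, both called, with Acta2 at 0.154 and 0.314 CPM. Leukocyte and macrophage markers (5 of 12 at 1 CPM) summed to 26.8 to 30.8 against 43.7 to 51.2 CPM. Of 7 tested, Cd68 (11.7 against 27.9 CPM) and Itgam (0 against 1.69 CPM) were called lower. Itgam reached the count minimum through the AAV9-CTRL libraries alone, so its call is no support for a direction. Lyz2 (7.04 against 7.62 CPM), Cd14 (6.86 against 6.16 CPM), Csf1r and Cx3cr1 were not called, and neither was Ccr2, whose libraries were higher without overlap (0.764 against 0.323 CPM). Epithelial and mesothelial markers (1 of 8) summed to 46.5 to 50.6 against 73.0 to 88.0 CPM. Ptprc averaged 0.0909 and 0.0914 CPM, C1qb and Wt1 were at 0, and Msln made most of the last sum. Endothelial markers (4 of 10) summed to 203 to 225 against 231 to 249 CPM, nearly all of it Eng, with Cdh5 at 0.00924 and 0.0502 CPM and Emcn at 0. No neutrophil marker of 4 reached 1 CPM, and their sum lay between 0 and 0.389 CPM. In bulk RNA, fewer cells of a type and less RNA per cell cannot be told apart, and the part of these markers in the results below was not tested.

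Fn1 encodes fibronectin (chromosome 1, 71585520 to 71653200, GRCm38). It stood at 4855, 5824 and 5722 CPM in AAV9-hFNDC4 replicates 1, 2 and 3 and at 2016, 1808 and 1846 CPM in the AAV9-CTRL replicates. The lowest AAV9-hFNDC4 library was thus well above the highest AAV9-CTRL library. The means were 5467 ± 533 CPM and 1890 ± 111 CPM (SD, n = 3), a 2.89-fold difference (log2 fold change 1.53, SE 0.12), and 2.76% of all tested genes had a higher log2 fold change. By raw count Fn1 ranked 3 of all genes in each AAV9-hFNDC4 library and 22, 39 and 38 in the AAV9-CTRL libraries. Its reads made up 0.520% to 0.612% of all counts in the former and 0.171% to 0.193% in the latter. A stretch of 227 exon bases, 2.68% of its exon length, is shared with Apol7d on the other strand. Counts per gene do not tell fibronectin's splice forms apart.

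Fbn1, fibrillin 1 (chromosome 2, 125300594 to 125507993), followed Fn1 in direction at a lower level. Its CPM were 295, 369 and 345 in the AAV9-hFNDC4 replicates against 198, 124 and 149 in the AAV9-CTRL replicates. No library of either group reached into the other, and AAV9-CTRL replicate 1 was the closest. The means were 336 ± 37.8 and 157 ± 37.7 CPM (SD, n = 3), a 2.14-fold difference (log2 fold change 1.10, SE 0.16). Of its exon bases, 20.3% are shared with Gm9913 on the other strand, and the authors' strand setting is not given in the sources used here.

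**Figure D1:**
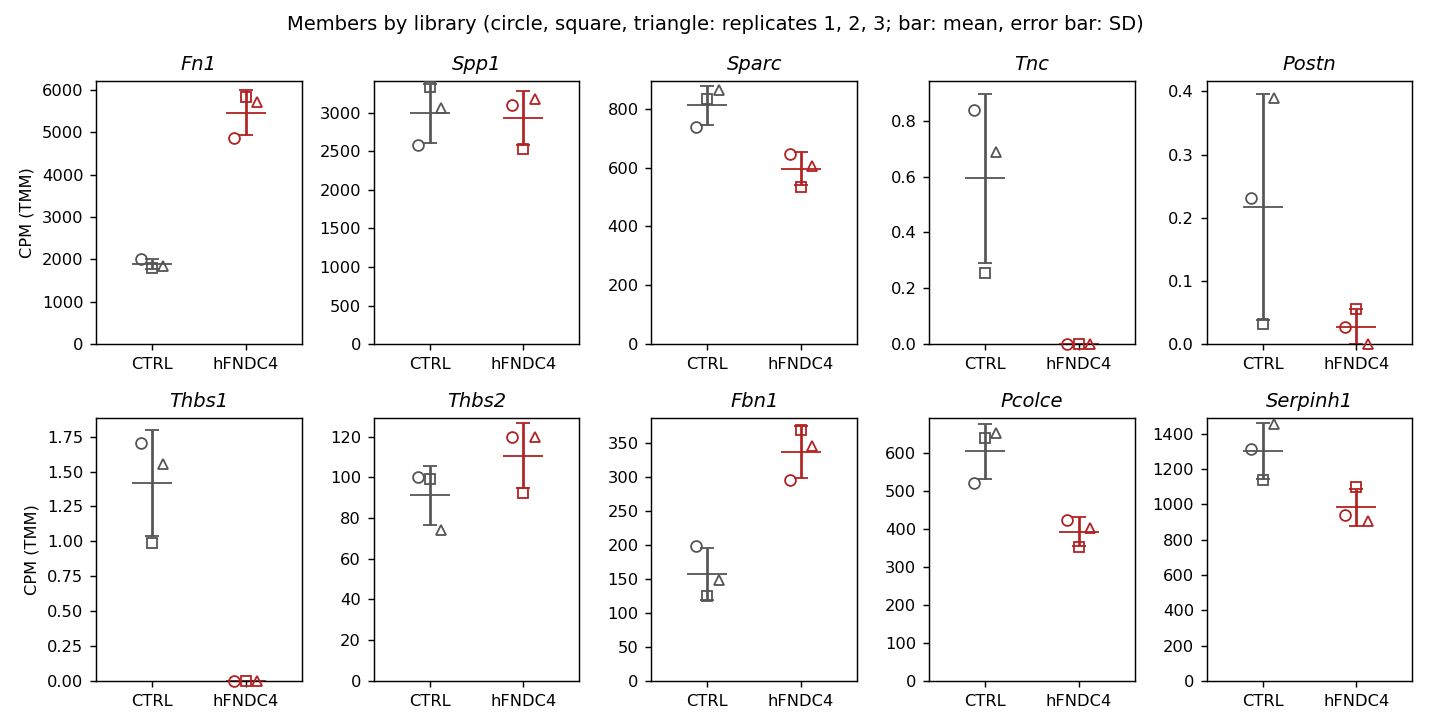
CPM (TMM-normalised, linear axis from 0) of the 10 members in each library, with circle, square and triangle for replicates 1, 2 and 3, the mean as a horizontal bar and the SD as an error bar. Fn1 and Fbn1 stand higher and Sparc, Pcolce and Serpinh1 lower in the 3 AAV9-hFNDC4 libraries, Tnc and Thbs1 are at 0 there, and Spp1, Thbs2 and Postn overlap.

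Osteopontin, a phosphoprotein that binds integrins and CD44, is encoded by Spp1 (chromosome 5, 104435118 to 104441050). Its levels were 3091, 2527 and 3177 CPM in the AAV9-hFNDC4 replicates and 2581, 3326 and 3058 CPM in the AAV9-CTRL replicates. Each group held a low library, AAV9-hFNDC4 replicate 2 and AAV9-CTRL replicate 1, and the ranges nearly coincided. The means of 2932 ± 353 and 2988 ± 378 CPM (SD, n = 3) gave a log2 fold change of -0.028 (SE 0.13). That sign was not stable: it was 0.074 without AAV9-hFNDC4 replicate 2, 0.057 without AAV9-CTRL replicate 2, and 0.30 (SE 0.10) with a correction for transcript length, under which Spp1 was called higher. Gm42793 on the same strand shares 18.8% of its exon bases, and how reads of both were counted is not given in the sources used here.

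Since Fn1 and Spp1 were both very abundant, their ratio within a library shows the unequal change without any scaling between libraries. The ratio still carries the trend with transcript length described below, since Fn1 has 8479 exon bases and Spp1 1648. With the length correction their log2 fold changes were 1.17 and 0.30, in place of 1.53 and -0.028. There were 1.57, 2.31 and 1.80 Fn1 counts for each Spp1 count in the AAV9-hFNDC4 replicates, and 0.781, 0.543 and 0.604 in the AAV9-CTRL replicates. Fn1 outnumbered Spp1 in all 3 libraries of the former and in 0 of the latter. Fn1 counts over Sparc counts were 7.52 to 10.9 against 2.14 to 2.73, and Fbn1 counts over Pcolce counts were 0.695 to 1.05 against 0.195 to 0.381. These ratios also set a longer gene over a shorter one. Fn1 and Fbn1 were each higher and Sparc and Pcolce each lower without overlap. The separation of Fn1 over Sparc and of Fbn1 over Pcolce thus follows from the single genes and is no further result. The same holds for Fn1 over Spp1. Fn1 was at 4855 CPM or more against 2016 CPM or less, while Spp1 stayed between 2527 and 3326 CPM in every library. Of all counts assigned to the 10 members, Fn1 took 50.5% ± 3.57 against 24.2% ± 2.46, and Spp1 27.1% ± 3.33 against 38.0% ± 3.61 (SD, n = 3). The 10 members together took 1.11% to 1.21% of a library's counts against 0.716% to 0.758%.

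**Figure D2:**
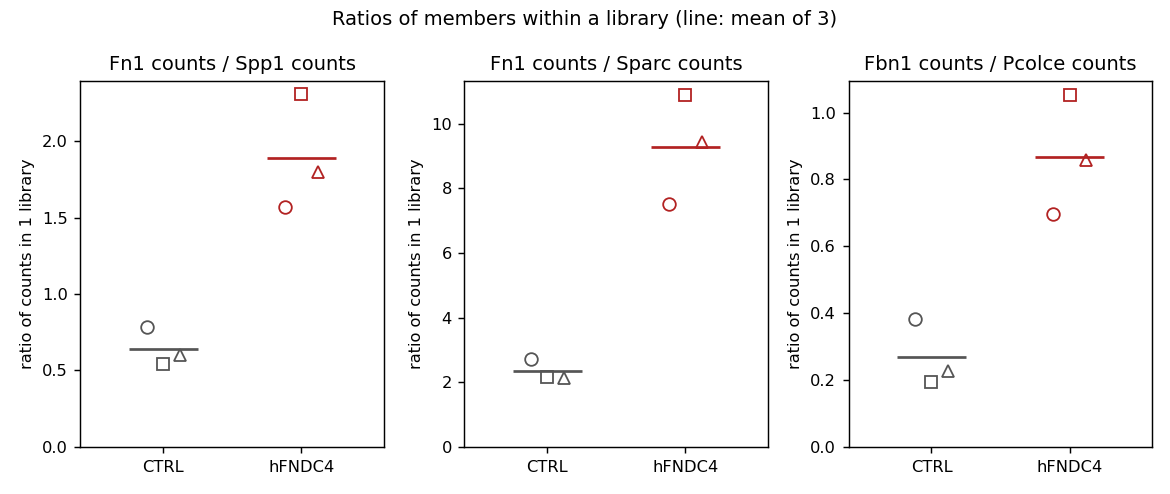
Ratio of the counts of 2 members in the same library (linear axes from 0), with circle, square and triangle for replicates 1, 2 and 3 and a line at the mean of the 3 libraries. Fn1 over Spp1, Fn1 over Sparc and Fbn1 over Pcolce are each higher in every AAV9-hFNDC4 library than in every AAV9-CTRL library, with AAV9-hFNDC4 replicate 2 at the top (2.31, 10.9 and 1.05). Each ratio sets a longer gene over a shorter one and is not corrected for transcript length. The separation of each ratio follows from the single genes.

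The matricellular genes behaved differently from one another. Sparc, a collagen-binding protein also called osteonectin (chromosome 11, 55394500 to 55423183), stood at 646, 535 and 607 CPM against 738, 832 and 864 CPM. The groups did not overlap, with means of 596 ± 56.2 and 812 ± 65.5 CPM (SD, n = 3) and a log2 fold change of -0.45 (SE 0.11). Differences of this size were common in these data, since 25% of tested genes had a log2 fold change below -0.44.

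Thbs1 and Thbs2 encode the closely related trimeric thrombospondins, which bind CD36 and CD47 and are known to restrain vessel growth. Thbs1 (chromosome 2, 118111876 to 118127133) had 0 counts in all 3 AAV9-hFNDC4 libraries and 59, 31 and 52 counts in the AAV9-CTRL replicates. It was low in both groups, at 1.42 ± 0.379 CPM (SD, n = 3) under AAV9-CTRL, and the bound set by 3 counts over the AAV9-hFNDC4 group, 0.0272 CPM, makes it at least 52.6-fold lower there. Thbs2 (chromosome 17, 14665500 to 14694235) was far more abundant and overlapped, at 120, 92.1 and 120 CPM against 99.9, 99.2 and 74.3 CPM. Its means were 111 ± 16.0 and 91.1 ± 14.6 CPM (SD, n = 3). The log2 fold change of 0.28 (SE 0.14) missed the threshold. Without AAV9-hFNDC4 replicate 2, the lowest of its group, it was 0.40 and passed, and without AAV9-CTRL replicate 3 it was 0.15.

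Tnc and Postn, the tenascin and periostin genes that mark the healing zone of an infarct, were near the limit of detection in every library. Tnc (chromosome 4, 63959785 to 64047015) had 0 counts in each AAV9-hFNDC4 library and 29, 8 and 23 counts in the AAV9-CTRL replicates, 0.594 ± 0.303 CPM (SD, n = 3), at least 22.2-fold lower by the same bound. Postn (chromosome 3, 54361109 to 54391037) had 1, 2 and 0 counts against 8, 1 and 13. Its ratio of AAV9-CTRL to AAV9-hFNDC4 counts, scaled to library size, was 8.14 with an exact 95% binomial interval from 2.45 to 42.5 that covers counting error only, and the libraries overlapped. Thbs1, Tnc and Postn all had their lowest AAV9-CTRL count in replicate 2. Postn averaged 0.217 CPM under AAV9-CTRL and 0.0274 CPM under AAV9-hFNDC4.

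Of the pair that serves collagen, Pcolce encodes a protein that speeds the trimming of procollagen by BMP1 (chromosome 5, 137605103 to 137613784). It stood at 424, 351 and 402 CPM in the AAV9-hFNDC4 replicates and 520, 638 and 651 CPM in the AAV9-CTRL replicates. All AAV9-hFNDC4 libraries were below all AAV9-CTRL libraries, with means of 392 ± 37.5 and 603 ± 72.3 CPM (SD, n = 3) and a log2 fold change of -0.62 (SE 0.12). Serpinh1 encodes HSP47, the collagen chaperone of the endoplasmic reticulum (chromosome 7, 99345376 to 99353239), at 942, 1100 and 907 CPM against 1312, 1136 and 1456 CPM. Its groups only just failed to touch, since AAV9-hFNDC4 replicate 2 at 1100 CPM lay close under AAV9-CTRL replicate 2 at 1136 CPM. The means were 983 ± 103 and 1301 ± 160 CPM (SD, n = 3) and the log2 fold change was -0.40 (SE 0.12). It was no longer called without AAV9-hFNDC4 replicate 1 (-0.37), AAV9-hFNDC4 replicate 3 (-0.34) or AAV9-CTRL replicate 3 (-0.32), nor once transcript length was corrected for (-0.25).

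Across the members the groups did not overlap in 7 of 10 genes, 2 higher and 5 lower, and in 6 of the 8 tested. Of all tested genes, 56.6% did not overlap, 27.1% higher and 29.5% lower. AAV9-hFNDC4 replicate 2 had the lowest Spp1, Sparc, Thbs2 and Pcolce of its group and the highest Fn1, Fbn1 and Serpinh1. It also had the lowest summed fibroblast markers of that group, at 3628 CPM.

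Transcript length moved with the fold changes. With the tested genes cut by exon length into 10 equal groups, the longest group (6974 exon bases and more) had a median log2 fold change of 0.46, and the shortest group one of -0.49. Fn1 (8479 exon bases) and Fbn1 (12004) belong to the longest group and stood above its median, while Thbs2 (5895) stood close to the median of its own group, 0.27. Spp1 (1648) and Pcolce (1701) share the next shortest group, whose median was -0.34. Within it Spp1 was above and Pcolce below that value. With a length trend removed per library, the log2 fold change was 1.17 for Fn1, 0.61 for Fbn1, 0.080 for Thbs2, -0.32 for Sparc, -0.31 for Pcolce and -0.25 for Serpinh1. In that fit Fn1, Fbn1 and Spp1 (0.30) were called higher, where 22% of all genes were, Sparc, Pcolce and Thbs1 lower, where 20.4% were, and Thbs2 and Serpinh1 were not called. When an absolute log2 fold change above 1 was also asked for, Fn1 and Fbn1 were higher and Thbs1 lower, as were 6.77% and 7.18% of all tested genes.

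**Figure D3:**
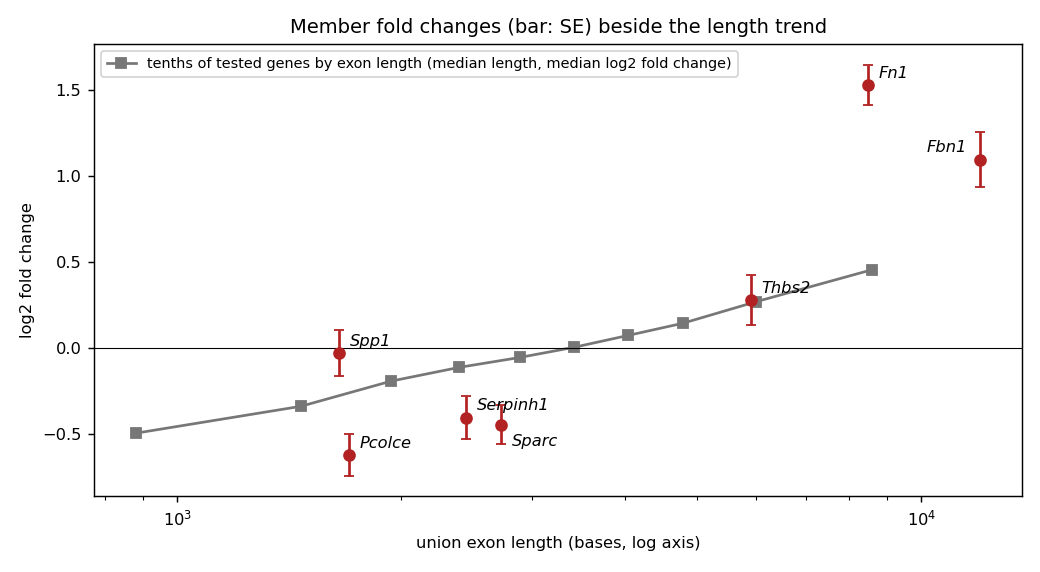
Log2 fold change (AAV9-hFNDC4 over AAV9-CTRL) against union exon length in bases on a log axis for the 7 tested members with counts in both groups (circles, error bars SE), with squares joined by a line for the medians of 10 equal groups of tested genes by length. The line climbs from -0.49 to 0.46, Fn1 (1.53) and Fbn1 (1.10) lie above its end, Thbs2 (0.28) lies on it, and Sparc, Serpinh1 and Pcolce lie below it.

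**Figure D4:**
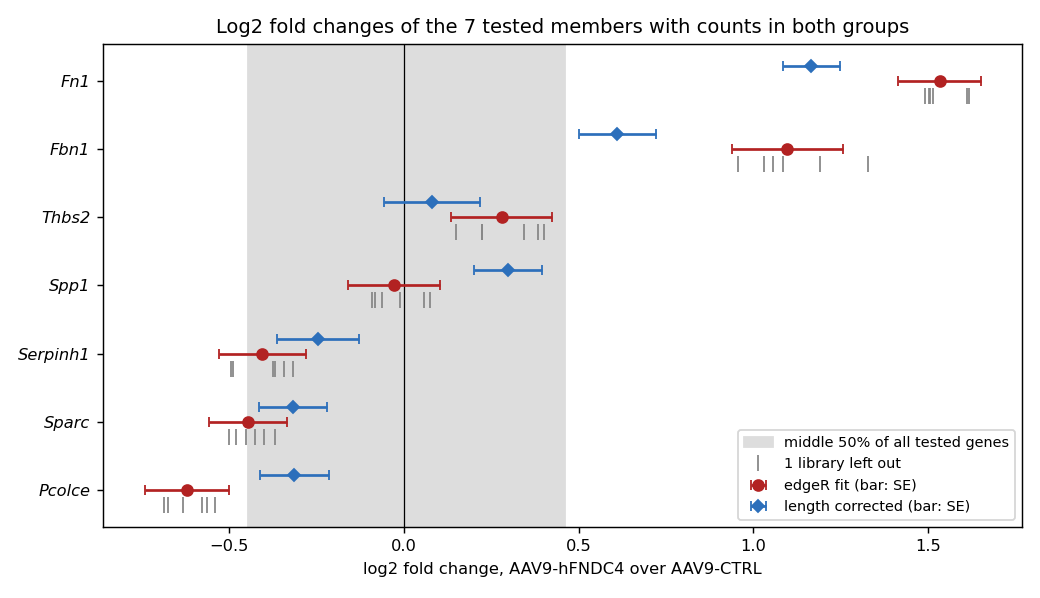
Log2 fold changes of the same 7 members from the edgeR fit (circles, bars SE), with the length correction (diamonds, bars SE) and with each library left out in turn (ticks), over a grey band for the middle 50% of all tested genes (-0.44 to 0.46). Fn1 and Fbn1 stay to the right of the band in all of these fits, and Spp1 falls on both sides of 0.

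Divided by exon length, Spp1 led in both groups, at 1779 CPM per kb under AAV9-hFNDC4 and 1813 CPM per kb under AAV9-CTRL. Under AAV9-CTRL it was followed by Serpinh1 (533 CPM per kb), Pcolce (355), Sparc (298) and Fn1 (223). Under AAV9-hFNDC4 the next level was that of Fn1 (645 CPM per kb), ahead of Serpinh1 (402), Pcolce (231) and Sparc (219). Pcolce and Sparc overlapped per kb in both groups, while the other neighbours among these 5 genes did not. Fbn1 stood above Thbs2 under AAV9-hFNDC4, at 28.0 against 18.8 CPM per kb, and overlapped it under AAV9-CTRL, at 13.1 against 15.5 CPM per kb. Thbs1, Tnc and Postn averaged at most 0.242 CPM per kb.

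Among the receptors of these proteins, 3 of 11 tested genes were higher and 3 lower, 54.5% called where 47.1% of all tested genes were, with a median log2 fold change of -0.15. The higher genes were a pair of integrin subunits and Cd47. Itgav, the alpha v subunit used for osteopontin and fibronectin, stood at 173 ± 21.4 against 108 ± 22.9 CPM (log2 fold change 0.69, edgeR adjusted p = 0.00316, and 0.40 with the length correction), and its partner Itgb5 at 209 ± 3.08 against 147 ± 6.76 CPM (0.51, adjusted p = 0.00108). Cd47, a receptor for thrombospondin 1, was higher by 0.48 (adjusted p = 0.00348), which was 0.24 and not called with the length correction. Itga5, the alpha subunit of the main fibronectin receptor, was lower at 103 ± 14.2 against 137 ± 21.0 CPM (-0.41, adjusted p = 0.027), and its partner Itgb1 did not pass (-0.16, adjusted p = 0.306). Itgb6 and Stab1, a scavenger receptor that takes up SPARC, stood at very low levels, 0.109 against 0.423 CPM and 0.189 against 0.768 CPM. They reached the count minimum through the AAV9-CTRL libraries alone, so that their being called lower (adjusted p = 0.0219 and 0.0134) is no support for a direction. Of the 3 lower calls, these 2 included, 0 were left without AAV9-hFNDC4 replicate 2, 1 was called without AAV9-CTRL replicate 1 or 3, and 5 genes were called lower without AAV9-CTRL replicate 2. Itga5 was at -0.30 without AAV9-hFNDC4 replicate 2, -0.27 without AAV9-CTRL replicate 1 and -0.41 without AAV9-CTRL replicate 3, none of them called.

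Other matrix glycoproteins went both ways, with 7 of 25 tested genes higher and 5 lower (48% called, beside 47.1% of all tested genes) and a median log2 fold change of 0.25. Ccn1, a matricellular integrin ligand and early injury gene, was at 12.6 ± 1.61 against 212 ± 47.0 CPM (-4.07, edgeR adjusted p = 1.0e-07). Its relative Ccn2 had 0 counts under AAV9-hFNDC4 and 0.296 ± 0.234 CPM under AAV9-CTRL. The large proteoglycan Vcan (0.96, adjusted p = 0.000277, and 0.44 with the length correction), the fibre-associated Emilin1 (0.66, adjusted p = 0.000493) and Tgfbi (0.79, adjusted p = 0.000586), a relative of periostin, were higher. Ltbp1, which tethers latent TGF-beta to fibronectin and fibrillin, was lower at -0.96 (adjusted p = 0.00597), and at -0.58 without AAV9-CTRL replicate 1. Thbs3, Efemp2 and Mfap5, a partner of fibrillin in microfibrils, had small decreases of -0.46, -0.35 and -0.48 (adjusted p = 0.0259, 0.0406 and 0.0404) whose calls were each lost without any 1 of the AAV9-hFNDC4 libraries and without AAV9-CTRL replicate 3. Efemp2 was also not called without AAV9-CTRL replicate 2 (-0.23), and Mfap5 not without any 1 of the 6 libraries. With the length correction Efemp2 stood at -0.26 and Mfap5 at -0.12, neither of them called. The count of lower genes in the list was 3 without any 1 AAV9-hFNDC4 library and 2 without AAV9-CTRL replicate 3.

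Genes that modify, fold and cross-link collagen were higher in 8 of 25 tested members and lower in 4 (48% called, beside 47.1% of all tested genes), with a median log2 fold change of -0.042. Pcolce2, the relative of Pcolce, was lower in the same direction as Pcolce, at 13.1 ± 1.85 against 24.5 ± 4.06 CPM (-0.91, edgeR adjusted p = 0.000831), whereas Bmp1, the proteinase both assist, did not pass (0.027, adjusted p = 0.861). Ppib, a prolyl isomerase of the procollagen folding complex, was at 274 ± 2.88 against 460.0 ± 44.3 CPM (-0.75, adjusted p = 0.000185) and at -0.27 with the length correction. Plod3, a lysyl hydroxylase, was lower at -0.52 (adjusted p = 0.000898), but the other lysyl hydroxylases in the list were higher. Plod2 was at 202 ± 101 against 71.3 ± 1.35 CPM (1.505, adjusted p = 0.00196). Plod1 was at 313 ± 66.3 against 185 ± 29.6 CPM (0.757, adjusted p = 0.00235). Both were also called higher with the length correction. Crtap, of the prolyl 3-hydroxylase complex, was lower at -0.47 (adjusted p = 0.0053), which was -0.15 and not called with the length correction. Loxl2, which cross-links collagen, was higher at 105 ± 27.8 against 45.1 ± 4.57 CPM (1.23, adjusted p = 0.000176). The count of higher genes was 5 without AAV9-hFNDC4 replicate 3 and 4 without AAV9-CTRL replicate 3, where the share of all genes called higher also fell from 22.1% to 16.5% and 15.2%.

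Of 20 tested proteases and inhibitors that cut or guard these proteins, 5 were higher and 7 lower (60% called, beside 22.1% higher, 25% lower and 47.1% either way over all tested genes), with a median log2 fold change of 0.17. The plasminogen activation genes named by the smallest p were lower, with Plat at 3.99 ± 0.255 against 17.5 ± 2.84 CPM (-2.14, edgeR adjusted p = 1.1e-05) and the urokinase receptor Plaur at 43.8 ± 3.67 against 142 ± 36.3 CPM (-1.70, adjusted p = 3.3e-05). The 5 higher genes were membrane and secreted metalloproteinases. Mmp11 was at 175 ± 15.9 against 52.1 ± 2.05 CPM (1.75, adjusted p = 1.7e-06) and Adamts5, which cuts versican, at 35.5 ± 3.24 against 13.4 ± 2.14 CPM (1.41, adjusted p = 3.3e-05). Adam10, Mmp14 and Adam17 were higher by 0.76, 0.56 and 0.42 (adjusted p = 0.000183, 0.000853 and 0.00394).

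Genes of signals known to act on matrix transcription were higher in 9 of 22 tested members and lower in 3 (54.5% called, beside 22.1% higher, 25% lower and 47.1% either way over all tested genes), with a median log2 fold change of 0.20. Tgfb2 was at 0.362 ± 0.371 against 11.8 ± 3.19 CPM (-5.01, edgeR adjusted p = 4.1e-05). It had 7, 4 and 29 counts in the AAV9-hFNDC4 replicates, and it reached the count minimum through the AAV9-CTRL libraries. Its being called lower is therefore no support for a direction. Smad7, an inhibitor that TGF-beta itself induces, was at 14.0 ± 1.58 against 43.7 ± 7.76 CPM (-1.64, adjusted p = 2.1e-05), and Srf, the factor that binds CArG boxes, at 55.4 ± 2.37 against 99.4 ± 6.57 CPM (-0.84, adjusted p = 9.2e-05). In contrast, the co-receptor Tgfbr3 was higher at 101 ± 18.2 against 46.0 ± 4.91 CPM (1.14, adjusted p = 0.000108). The others called higher were Tgfb3, Tgfbr2, Smad3, Ski, Mrtfb, Tead1, Sp1 and Runx2, by 0.46 to 0.84. Of these, Tgfbr2, Mrtfb and Tead1 were not called with the length correction (0.23, 0.25 and 0.17). Tgfb1, more abundant than Tgfb2 at 59.9 against 52.7 CPM, was not called (0.18, adjusted p = 0.248), though it was with the length correction (0.38). With the length correction 5 genes of this list were lower in place of 3.

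**Figure D5:**
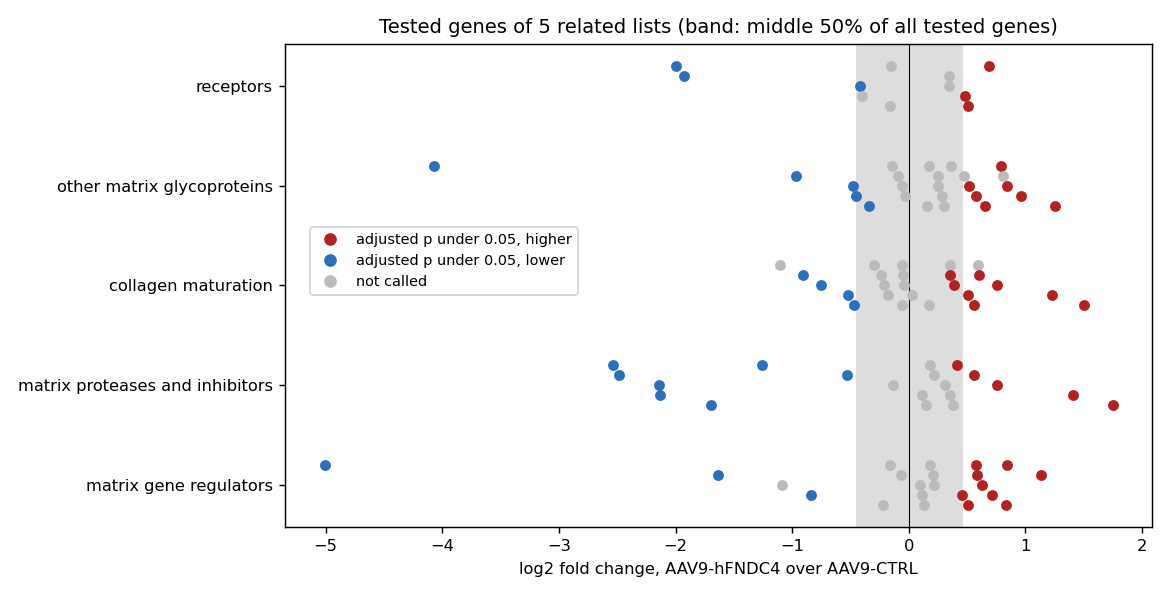
Log2 fold changes (AAV9-hFNDC4 over AAV9-CTRL) of the tested genes in the 5 lists related to the members, 1 point per gene, coloured by whether the adjusted p was under 0.05, over a grey band for the middle 50% of all tested genes. Every list holds genes called in both directions, and the lowest points are Tgfb2 (-5.01) and Ccn1 (-4.07). Tgfb2 reached the count minimum through the AAV9-CTRL libraries.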

How the data were processed

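Per the submitters' processing notes, the authors used fastp, HISAT2, HTSeq, R 3.2.0 and DESeq2 with the mouse build GRCm38 (mm10), and they deposited raw read counts per gene symbol. The sources used here give no parameters, annotation release or strand setting. The main test was run with edgeR 4.0.16 under R 4.3.3: filterByExpr defaults (14663 of 27482 symbols kept), TMM (trimmed mean of M-values) scaling, robust dispersions, the quasi-likelihood F test and Benjamini-Hochberg adjustment over all genes tested. The SE is the log2 fold change divided by the square root of F. CPM used TMM-scaled library sizes. Exon lengths and positions came from GENCODE vM21 basic. The length correction subtracts a loess trend (span 0.4) per library. DESeq2 1.42.0 and limma 3.58.1 (voom) were alternatives. The code was tested on simulated counts. Figures used matplotlib 3.10.9. The members and all lists were chosen with earlier results of these data known. Related genes are named by the 4 smallest p per list and, where 5 or fewer were called in a direction, in full. Itgb1, Ccn2, Bmp1, Plod1, Plod2, Tgfb1 and the regulators called higher other than Tgfbr3 were named after their values were seen. The labels do not say that each library is another animal, so the spread behind the p-values may be only technical.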

Additional observations from a re-analysis of the deposited data

How the results depend on the processing

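Fn1, Fbn1, Sparc and Pcolce kept their direction and call in the 14 alternatives that refit the data, with log2 fold changes of 1.17 to 1.62, 0.61 to 1.33, -0.50 to -0.32 and -0.69 to -0.31. Spp1 changed sign in 3, at 0.30 once length was corrected for, 0.074 without AAV9-hFNDC4 replicate 2 and 0.057 without AAV9-CTRL replicate 2, with a lowest value of -0.091 without AAV9-CTRL replicate 1. Thbs1, and Tnc in the 4 fits without 1 library that tested it, entered through AAV9-CTRL counts alone, so their calls are no sign of stability. With an absolute log2 fold change above 1 also required, 1 member (Thbs1) was lower and Sparc and Pcolce were not called. Among the lists, 0 receptors were higher and 2 lower, 1 glycoprotein was higher and 1 lower, and 2 collagen maturation genes were higher and 0 lower. Of the proteases 2 were higher and 6 lower, and of the regulators 1 was higher and 2 lower. Without the low-count filter 5 receptors were higher, and with at least 1 CPM in 3 libraries 1 was lower. With the length correction 3 glycoproteins and 5 regulators were lower. Deviations from the group means were weakly and negatively correlated between same-numbered libraries (-0.17, -0.317 and -0.155). Between libraries of different number the correlations ran from -0.132 to 0.222. With deviations taken from means of 3 libraries, these values cannot tell whether same-numbered libraries were handled as pairs. The main fit did not pair them. With the replicate number as a block 5743 genes were called in place of 6908, 2 glycoproteins were lower, and Serpinh1 was not called (-0.40). Leaving out 1 library at a time gave 2 to 3 members higher and 3 to 5 lower, 3 to 4 receptors higher and 0 to 5 lower, 6 to 10 glycoproteins higher and 2 to 5 lower, 4 to 9 collagen maturation genes higher and 4 to 5 lower, 5 to 6 proteases higher and 6 to 8 lower, and 6 to 9 regulators higher and 3 to 4 lower. The cause of these differences was not tested. With 3 counts or fewer in a group, Tnc, Thbs1 and Postn are limited by depth.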
